A study of Mus musculus with 2 samples.

Results

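The 8 lung genes of ion and water transport described here are *Scnn1a*, *Scnn1b*, *Scnn1g*, *Atp1b1*, *Cftr*, *Slc12a2*, *Aqp1* and *Aqp4*. These 8 of the 32285 genes in the count tables were chosen by name, and their values played no part in the choice of cells. Lung cells were profiled by 3′ single-cell RNA-seq, which counts unique molecular identifiers (UMIs) for each gene and cell. A single library was made per genotype, from 3 mice each, and the cells of single mice cannot be told apart. The control mice were *Cebpa* fl/fl, with both alleles of the transcription factor gene *Cebpa* flanked by loxP sites, and their library is labelled FF. The *Cebpa* ΔSftpc mice carried in addition a tamoxifen-inducible Cre recombinase driven by the promoter of *Sftpc*, a gene of alveolar type 2 (AT2) cells, and their library is labelled KO. Mice on a mixed background were 3 months old at the start of tamoxifen treatment (75 mg/kg a day, 5 injections), and lungs were taken 26 weeks after the first injection, with a further weekly round in mice kept that long. The paper describes cell suspensions of whole lungs for this sequencing, whereas the labels mention a cell sort. The gate of that sort is not given in the sources used here. Below, FF and KO stand for the libraries so labelled. With 1 library per genotype there was no test between genotypes, and every interval given is an exact 95% interval that covers counting error only.

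The alveolar surface is kept thin and wet by salt transport, which water follows. Sodium enters epithelial cells from the airspace through the epithelial sodium channel ENaC, built of an α, a β and a γ subunit, and leaves them towards the blood through the sodium pump. Chloride can be secreted the other way, loaded into the cell by a sodium-potassium-chloride cotransporter and released through the CFTR channel, while aquaporins carry water across membranes.

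Cells were gated by raw UMIs of marker genes that include none of the 8, and cells that met more than 1 gate were left out. FF held 11487 cells after filtering, with a median of 4835 UMIs, and KO held 13238 cells with a median of 2607. The gates gave 70 AT1 cells in FF and 15 in KO, 443 and 213 AT2 cells, 197 and 116 multiciliated cells, 17 and 11 airway secretory cells, and 7253 and 6471 endothelial cells. Depth per cell differed in direction between classes. Median UMIs were 20684 in FF against 1619 in KO for AT2 cells, 4024 against 2473 for AT1 cells, but 11198 against 34683 for secretory cells. In both libraries every marker of a separate check list peaked in its own class for AT1, AT2, multiciliated and endothelial cells. Of the 4 secretory markers 3 did so, *Muc5b* failing in FF and *Cbr2* in KO. *Cebpa* itself was at 156 counts per 1000000 UMIs (CPM; 148–164) in AT2 cells of FF and at 126 CPM (109–146) in those of KO, and after thinning every cell to 1000 UMIs 15.7% of AT2 cells carried a *Cebpa* UMI in both libraries. Whether the tags counted lie in the deleted part is not given in the sources used here, so the AT2-gated cells of KO cannot be taken as cells without *Cebpa* RNA.

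Each gene was placed on the mouse genome GRCm38. *Scnn1a* (ENSMUSG00000030340) lies on the forward strand of chr6:125320659-125344943, and *Cftr* (ENSMUSG00000041301) and *Aqp1* (ENSMUSG00000004655) on the same strand at chr6:18170687-18322768 and chr6:55336432-55348555. *Atp1b1* (ENSMUSG00000026576) lies on the reverse strand of chr1:164437109-164458355. The β and γ genes are neighbours. *Scnn1g* (ENSMUSG00000000216) lies on the forward strand of chr7:121734479-121768475, and *Scnn1b* (ENSMUSG00000030873) starts 96562 bases after its end on the same strand, at chr7:121865038-121918514. The promoters of this pair are shown because their RNAs were found in the same cells, and those of *Cftr* and *Aqp1* because these genes stood out in AT2 and endothelial cells. Each RefSeq sequence (GRCm38.p6) runs from 250 bases before to 50 bases after the RefSeq start of a gene on the forward strand, which for *Aqp1* differs from the start given above, and capitals mark matches to the motifs searched. The windows are chr7:121864788-121865087, chr7:121734229-121734528, chr6:18170437-18170736 and chr6:55336049-55336348.
Scnn1b: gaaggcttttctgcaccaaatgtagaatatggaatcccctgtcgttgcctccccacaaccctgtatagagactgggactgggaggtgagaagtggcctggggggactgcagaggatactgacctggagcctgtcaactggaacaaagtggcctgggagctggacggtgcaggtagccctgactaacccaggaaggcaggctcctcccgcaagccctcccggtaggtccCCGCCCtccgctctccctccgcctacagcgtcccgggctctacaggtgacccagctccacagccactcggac
Scnn1g: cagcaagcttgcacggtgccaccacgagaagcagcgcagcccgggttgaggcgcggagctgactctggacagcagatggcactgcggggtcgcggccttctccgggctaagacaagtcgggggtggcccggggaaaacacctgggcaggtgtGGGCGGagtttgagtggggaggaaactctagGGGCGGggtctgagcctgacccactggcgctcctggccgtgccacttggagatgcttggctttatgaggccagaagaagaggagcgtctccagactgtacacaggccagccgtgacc
Cftr: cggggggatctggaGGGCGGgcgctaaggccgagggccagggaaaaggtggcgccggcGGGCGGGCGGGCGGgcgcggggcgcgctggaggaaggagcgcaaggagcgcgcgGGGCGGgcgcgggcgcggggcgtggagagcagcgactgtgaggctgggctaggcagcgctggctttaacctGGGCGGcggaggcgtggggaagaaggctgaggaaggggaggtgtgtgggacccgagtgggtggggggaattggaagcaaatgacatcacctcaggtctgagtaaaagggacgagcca
Aqp1: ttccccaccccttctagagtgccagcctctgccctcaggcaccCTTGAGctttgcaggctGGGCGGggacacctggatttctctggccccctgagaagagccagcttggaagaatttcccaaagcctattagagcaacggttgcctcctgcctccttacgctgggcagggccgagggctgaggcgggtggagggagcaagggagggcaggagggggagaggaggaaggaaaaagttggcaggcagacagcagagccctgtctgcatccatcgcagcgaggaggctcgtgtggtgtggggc
The motifs were TTGCNNAA for C/EBP factors, CTCAAG for NKX2-1, GGAATG for TEAD factors, the GC box GGGCGG and TATAAA, each read on both strands, where N is any base. The GC box was found once in the *Scnn1b* and *Aqp1* windows, at 2 places in those of *Scnn1g* and *Atp1b1*, and at 6 partly overlapping places in that of *Cftr*. It was present in 35.7% of 32851 promoter windows. The *Aqp1* window also held CTCAAG, read here on the reverse strand, which 15.9% of windows held. TTGCNNAA, present in 10.8% of all windows, was in none of the 5 windows examined, and neither were GGAATG nor TATAAA, which 14.7% and 13.6% of windows held.

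**Figure D1:**
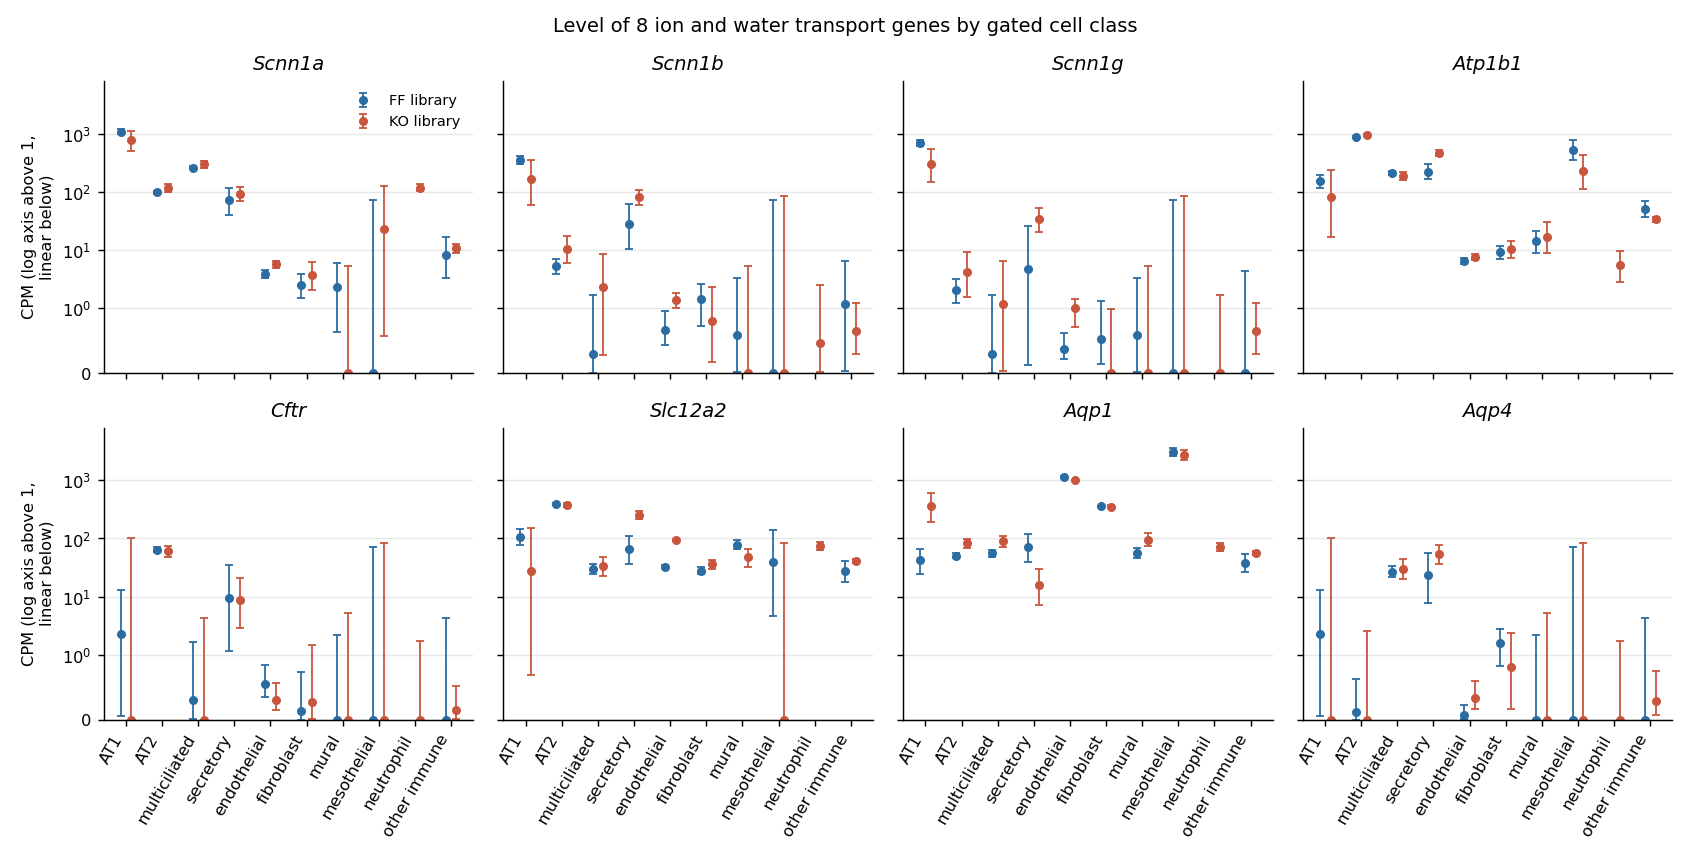
Summed level of each of the 8 genes in CPM (vertical axis, logarithmic above 1 and linear below) by cell class and library, with exact Poisson 95% intervals. *Scnn1b* and *Scnn1g* stood highest in AT1 cells, *Atp1b1*, *Cftr* and *Slc12a2* in AT2 cells, *Aqp4* in airway cells, and *Aqp1* in mesothelial and endothelial cells.

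*Scnn1a*, the α subunit without which the channel does not form, was highest in AT1 cells, the flat cells that cover most of the alveolar surface. Its level there was 1077 CPM (981–1180.0, 461 UMIs) in FF and 767 CPM (510–1108, 28 UMIs) in KO. Multiciliated cells came next at 261 CPM (244–279) and 297 CPM (262–336), and AT2 cells followed at 98.9 CPM (92.4–106) and 116 CPM (98.8–135). Secretory cells had 71.3 CPM (39.9–118) and 92.4 CPM (69.0–121), and their intervals overlapped those of AT2 cells in both libraries. Endothelial cells and fibroblasts were far lower, at 3.89 and 2.53 CPM in FF and at 5.69 and 3.78 CPM in KO. The endothelial log2 ratio of KO over FF was 0.55 (0.23 to 0.87), from 153 and 187 UMIs. At the matched depth of 1000 UMIs a *Scnn1a* UMI was found in 47.5% (34.6–60.7) of AT1 cells, 18.4% of multiciliated cells, 9.49% of AT2 cells and 0.363% of endothelial cells in FF. In KO the shares were 35.7% (12.8–64.9), 13.1% (7.34–21.0), 8.72% (4.96–14.0) and 0.842%, and the intervals of the 3 epithelial classes overlapped.

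The β and γ subunits were much more restricted than α. *Scnn1b* was at 353 CPM (299–414, 151 UMIs) in AT1 cells of FF and 164 CPM (60.3–358, 6 UMIs) in those of KO. *Scnn1g* was at 701 CPM (624–785, 300 UMIs) and 301 CPM (150–539, 11 UMIs). In AT2 cells *Scnn1b* had 5.37 and 10.6 CPM and *Scnn1g* 2.06 and 4.24 CPM, and multiciliated cells held 1 *Scnn1b* UMI and 1 *Scnn1g* UMI in FF and 2 and 1 in KO. Multiciliated cells, second in *Scnn1a*, were thus close to 0 for its partners. Set against 100 UMIs of α, AT1 cells of FF had 32.8 UMIs of β (27.1–39.4) and 65.1 of γ (56.1–75.4). AT2 cells of FF had 5.43 of β and 2.08 of γ, and multiciliated cells 0.116 of each. The few secretory cells were not low in β, with 40 (12.7–109) in FF and 88.5 (58.2–134) in KO. Their γ values were 6.67 (0.158–43.3) and 36.5 (20.4–62.9), from 15 and 52 UMIs of α. AT1 cells of KO had 21.4 of β (7.25–52.7) and 39.3 of γ (17.6–81.4), intervals that take in the FF values. These are ratios of tags from 1 end of each transcript and not of proteins.

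**Figure D2:**
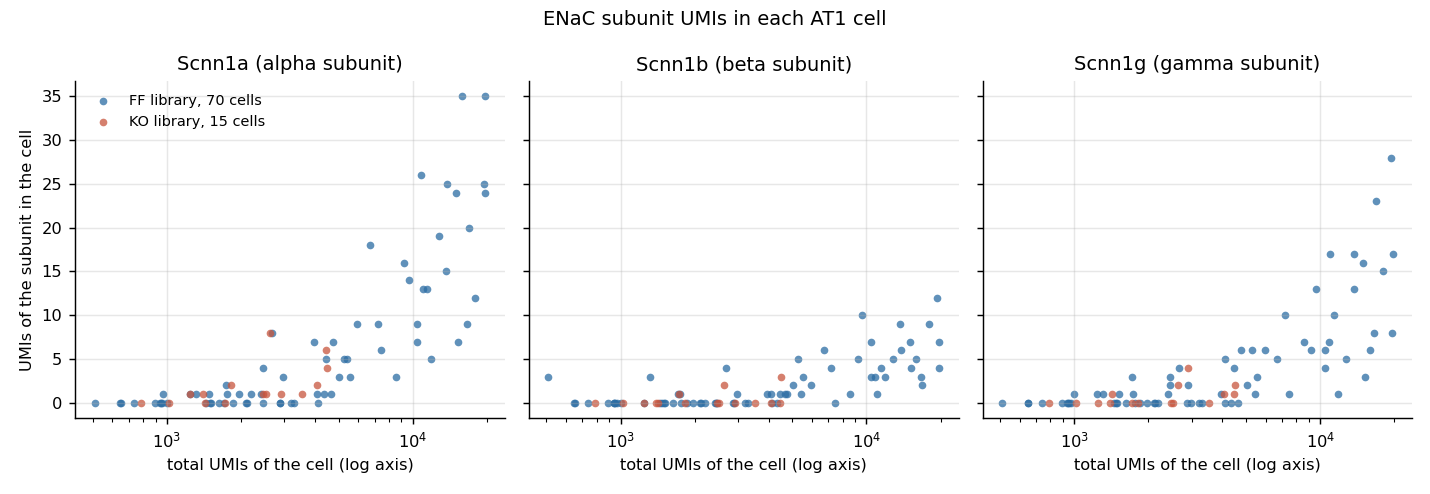
UMIs of the α, β and γ subunit genes in single AT1 cells (vertical axis) against the total UMIs of each cell (horizontal axis, logarithmic), by library. In the 38 FF cells with at least 3000 UMIs the 3 subunits were mostly found together, and KO had 4 AT1 cells at that depth.

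Counted cell by cell, the subunits met in AT1 cells. Of the 38 FF AT1 cells with at least 3000 UMIs, 35 had a UMI of α, 33 of β and 33 of γ, and 32 (84.2%) had all 3. In KO 4 AT1 cells reached that depth, and all 4 had α, 1 had β, 3 had γ and 1 had all 3. AT2 cells of that depth were many and gave another picture. Of 416 in FF, 331 had a UMI of α, 39 of β and 15 of γ, 2 had all 3, and 287 had α alone. Of 68 in KO, 48 had α, 10 had β, 3 had γ and 0 had all 3, which allows up to 4.41% of such cells with UMIs of all 3 and sets no limit on cells that express them. Of 193 multiciliated cells in FF 173 had α, 1 had β and 1 had γ. Secretory cells differed between the libraries, since 6 of 8 deep cells had all 3 subunits in KO and 0 of 12 in FF. The median depth of secretory cells was 3.10 times higher in KO, so this is not a comparison at matched depth.

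Between the libraries, the 3 ENaC genes were at a lower level in AT1 cells of KO. The log2 ratio of KO over FF was −0.49 (−1.10 to 0.06) for *Scnn1a*, −1.10 (−2.57 to 0.05) for *Scnn1b* and −1.22 (−2.24 to −0.36) for *Scnn1g*. The interval left out 0 for *Scnn1g* alone. The median log2 ratio of all genes tested in AT1 cells was 0.36, and relative to it the 3 genes stood at −0.85, −1.46 and −1.58. That median depended on the minimum count, since it was −0.085 among genes with at least 50 summed UMIs. *Atp1b1*, with 65 and 3 UMIs, was at −0.89 (−3.20 to 0.72), and *Aqp1* was at 3.08 (1.93 to 4.19). Of the 6 genes tested in AT1 cells 2 were at least 2-fold lower in KO and 1 at least 2-fold higher, where 15.3% of all 3763 genes tested were past 2-fold either way. Only 15 AT1 cells carried the KO values, and 11 of the 26 KO cells that met the AT1 gate were left out because they also met the endothelial gate, against 4 of 81 in FF. The 6 endothelial check markers summed to 755 CPM in AT1 cells of FF and 1807 CPM in those of KO, and AT2 and surfactant markers to 1325 and 3095 CPM and the neutrophil list to 2.34 CPM (1 UMI) and 411 CPM (15 UMIs). Their part in the AT1 values was not tested. AT1 markers were lower in KO as well, *Ager* at 19338 and 8161 CPM and the AT1 check list at 16607 and 12296 CPM. Set against 100 UMIs of that list *Scnn1a* had 6.49 UMIs in FF and 6.24 in KO. For *Scnn1b* and *Scnn1g*, whose log2 ratios were lower than that of *Scnn1a*, the counts were 151 and 6 UMIs and 300 and 11 UMIs. The list itself had 7108 UMIs in FF and 449 in KO, and no ratio to it was taken for either gene. *Slc12a2* was at 107 and 27.4 CPM (46 and 1 UMIs), and its log2 ratio of −0.39 was taken with 3 counts in place of the 1. With the *Rtkn2* requirement dropped, the log2 ratio of *Atp1b1* turned to 2.06 and that of *Slc12a2* to 1.79. Among other transport genes the leading ones in AT1 cells were *Cldn18*, a tight junction claudin, at 5701 and 3396 CPM, the water channel *Aqp5* at 2684.5 and 1397 CPM, and *Spint2*, an inhibitor of the proteases that activate ENaC, at 717 and 301 CPM. Of 22 listed transport genes tested, *Spint2* (log2 ratio −1.25) and the chloride channel gene *Ano1* (−1.30) were at least 2-fold lower in KO, and 2 were at least 2-fold higher, among them *Nr3c1*, the glucocorticoid receptor, at 178 and 411 CPM.

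A few cells with AT1 and keratin markers, and cells that met no gate, also carried ENaC UMIs. These sets were defined after the data were seen and are too small for more than a description. Cells with an AT1 gate sum but no *Rtkn2* UMI and at least 10 UMIs of *Krt8* and *Krt18* together numbered 3 in FF and 7 in KO. All 3 FF cells also met the AT2 gate, with 3791 to 6030 *Sftpc* UMIs, and of the KO cells 3 met the AT2 gate, 1 the secretory gate and 3 no gate. *Scnn1a* was at 152 CPM (11 UMIs) in the FF cells and 450 CPM (61 UMIs) in the KO cells, and the 3 KO cells with no gate had 4, 21 and 26 of its UMIs and 0 of *Scnn1b* and *Scnn1g*. The cell that met the secretory gate, with 3412 *Scgb1a1* UMIs, gave 6 of the 7 *Scnn1b* UMIs and both *Scnn1g* UMIs of KO. *Atp1b1* was high in both, at 635 and 1107 CPM. *Cftr* was at 193 CPM (14 UMIs) in the FF cells, and the KO cells held 0 of its UMIs, with an exact upper limit of 27.2 CPM. Cells without a gate but with UMIs of general epithelial genes numbered 11 in FF and 58 in KO. The 58 included the 3 KO cells with no gate named above, so the sets share cells. *Scnn1a* was at 196 CPM (18 UMIs in 8 cells) and 338 CPM (85 UMIs in 14 cells) in this second set. The 85 UMIs of KO count again the 4, 21 and 26 of those 3 cells, which are most of them. *Atp1b1* was at 371 and 537 CPM and *Slc12a2* at 21.8 CPM (2 UMIs) and 282 CPM. *Cftr* had 0 UMIs in FF and was at 19.9 CPM (5 UMIs) in KO. *Krt8* stood at 611 and 1937 CPM and *Sftpc* at 753 and 111 CPM in the same cells.

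**Figure D3:**
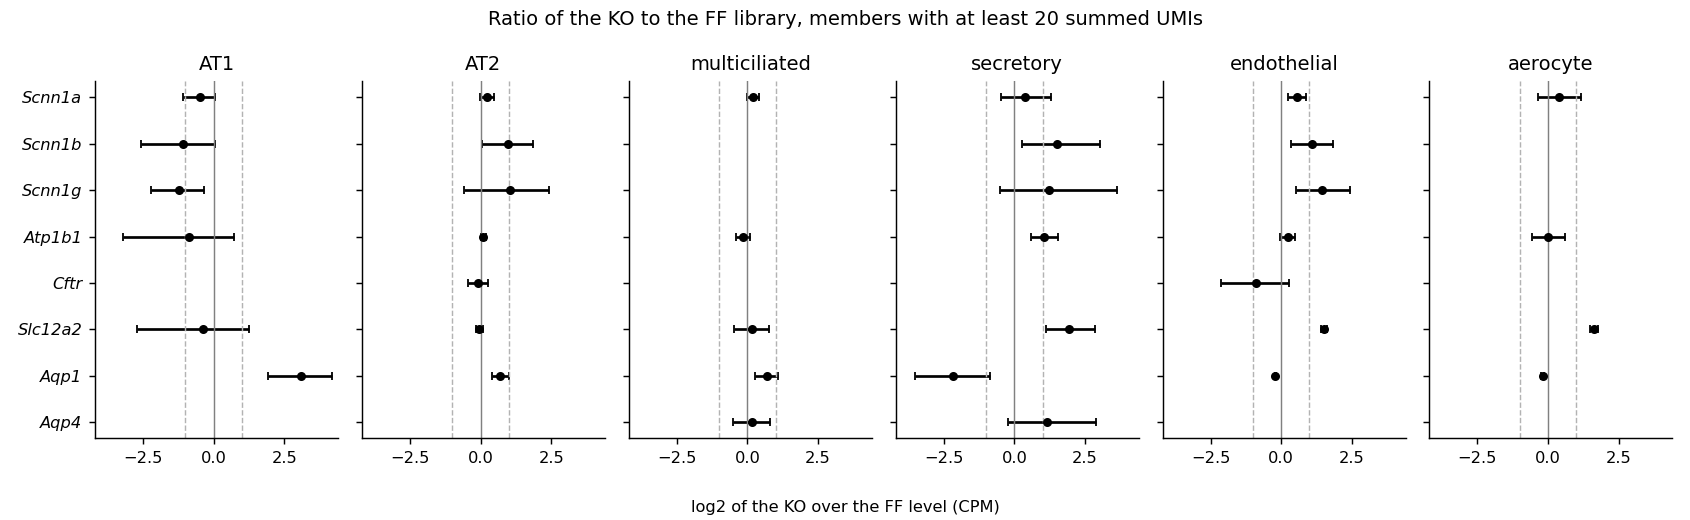
Log2 ratio of summed level, KO over FF, of each gene (horizontal axis) in 6 cell classes, with exact 95% intervals for counting error and dashed lines at 2-fold. *Slc12a2* in endothelial cells and aerocytes stood past 2-fold with a narrow interval, whereas the AT1 and secretory intervals were wide.

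Of the gated classes, AT2 cells, the cuboidal cells that make surfactant, were the main site of *Atp1b1*, *Cftr* and *Slc12a2*. The AT2 gate counted UMIs of *Sftpc*, *Sftpb*, *Sftpa1*, *Abca3* and *Lamp3*. The AT2 values and ratios therefore describe cells that kept such RNA, and any cells of KO that had lost it would not be in the class. *Atp1b1*, the β1 subunit that brings the sodium pump to the membrane, was at 887 CPM (867–907, 7763 UMIs) in FF and 949 CPM (899–1001, 1344 UMIs) in KO. At matched depth 54.4% (49.6–59.2) and 47.1% (39.5–54.8) of AT2 cells had a UMI of it. Its log2 ratio was 0.10 (0.01 to 0.18), but the value fell on either side of 0 when cells were weighted equally (−0.25) or cells with 2 gates were kept (−0.05). Mesothelial cells, 7 in FF and 12 in KO, came next in FF at 529 CPM (27 UMIs) and had 230 CPM (10 UMIs) in KO. Their log2 ratio was −1.20 (−2.41 to −0.11). Multiciliated cells had 209 and 188 CPM, secretory cells 224 and 462 CPM, and AT1 cells 152 and 82.2 CPM. Endothelial cells stood at 6.58 and 7.70 CPM.

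Among the gated classes *Cftr*, the chloride channel mutated in cystic fibrosis, was found almost wholly in AT2 cells. It was at 64.4 CPM (59.2–70.0, 564 UMIs) in FF and 60.7 CPM (48.6–75.02, 86 UMIs) in KO, and the log2 ratio was −0.08 (−0.43 to 0.24). A UMI was found in 54.4% of AT2 cells in FF and 20.7% in KO. At matched depth these shares were 5.09% (3.22–7.61) and 4.65% (2.03–8.96), so the gap between the unthinned shares went with the depth of 20684 and 1619 UMIs per cell. Endothelial cells, at median depths of 4896 and 4229 UMIs, had a UMI in 0.303% and 0.155% of cells. Secretory cells held 2 *Cftr* UMIs in FF and 5 in KO, and multiciliated cells 1 and 0, where a count of 0 in KO allows up to 3.51 CPM.

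*Slc12a2*, the cotransporter NKCC1 that loads cells with chloride, was at 391 CPM (378–405) in AT2 cells of FF and 380.0 CPM (349–413) in those of KO, a log2 ratio of −0.04 (−0.18 to 0.09). At matched depth 28.7% and 27.3% of AT2 cells had a UMI. It had 6.07 times the UMIs of *Cftr* in the same cells in FF and 6.26 times in KO, on the scale of 3′ tags, which are counted once per captured transcript whatever its length. The ENaC genes were low in AT2 cells, with log2 ratios of 0.23 (−0.02 to 0.47) for *Scnn1a*, 0.98 (0.04 to 1.84) for *Scnn1b* and 1.04 (−0.58 to 2.44) for *Scnn1g*, the last from 18 and 6 UMIs. Of 7 genes tested in AT2 cells 1, *Scnn1g*, was past 2-fold, against 7.34% of all 11396 genes tested. Of 48 listed transport genes tested 7 were at least 2-fold higher in KO and none lower. With an interval that left out 0 these included *Sgk1*, a kinase that keeps ENaC at the membrane, at 17.8 and 53.0 CPM, the pump regulator *Fxyd5* at 10.3 and 32.5 CPM, and the carbonic anhydrase *Car4* at 31.4 and 65.7 CPM. Markers of other cells were also higher in AT2 cells of KO, since the neutrophil list was at 2.63 and 576 CPM and the endothelial check list at 665 and 812 CPM, and their part in these values was not tested. The leading listed gene, the phosphate cotransporter *Slc34a2*, was at 5046 CPM in FF and 5032 CPM in KO.

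In the airways the genes split by cell type. Multiciliated cells, whose cilia move mucus, had *Scnn1a* and *Atp1b1* and little else, with *Slc12a2* at 30.4 and 33.9 CPM. None of the 5 genes tested there was past 2-fold between the libraries, against 6.18% of 10922 genes, and the log2 ratios were 0.19 for *Scnn1a*, −0.15 for *Atp1b1*, 0.16 for *Slc12a2*, 0.68 for *Aqp1* and 0.17 for *Aqp4*. *Aqp4*, a basolateral water channel, was seen in airway cells, at 27.1 CPM (21.7–33.3, 89 UMIs) and 30.4 CPM (19.9–44.6, 26 UMIs) in multiciliated cells and at 23.8 CPM (5 UMIs) and 53.3 CPM (30 UMIs) in secretory cells. AT2 cells held 1 *Aqp4* UMI in FF and 0 in KO, which allows up to 2.12 CPM, and AT1 cells 1 and 0. Endothelial cells had an *Aqp4* UMI in 0.0414% and 0.170% of cells. In multiciliated cells 32.5% of FF cells and 13.8% of KO cells had one, at median depths of 16627 and 1865.5 UMIs, and at matched depth the shares were 3.06% (1.13–6.54) and 0.935% (0.0237–5.10).

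Secretory cells, which make the airway lining proteins, were few. *Scnn1b* was at 28.5 and 81.7 CPM, *Scnn1g* at 4.76 CPM (1 UMI) and 33.7 CPM (19 UMIs), *Atp1b1* at 224 and 462 CPM, and *Slc12a2* at 66.6 and 254 CPM. Of the 7 genes tested 5 were at least 2-fold higher in KO and 1, *Aqp1*, at least 2-fold lower, but 27.7% of the 2770 genes tested were past 2-fold. The 3 deepest cells held 44.3% of the UMIs of the class in FF and 65.3% in KO, and the gate genes alone 56.3% and 52.4%. In KO 1 cell gave 110 of the 143 *Slc12a2* UMIs and 24 of the 30 *Aqp4* UMIs. Without the 3 deepest cells of each library the log2 ratio of *Aqp4* turned from 1.16 to −1.15, and when the gate was applied after thinning that of *Slc12a2* turned from 1.93 to −1.21. Single deep cells set much of the secretory values.

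*Slc12a2* in endothelial cells had the widest gap between the libraries of the values with over 1000 UMIs in each. It was at 32.9 CPM (31.1–34.7, 1295 UMIs) in FF and 93.97 CPM (90.7–97.3, 3088 UMIs) in KO, a log2 ratio of 1.51 (1.42 to 1.61). Of 7 genes tested 3 were at least 2-fold higher in KO, against 9.70% of 15373 genes past 2-fold either way. Besides *Slc12a2* these were *Scnn1b* and *Scnn1g*, both at or under 1.40 CPM. The AT1 gate markers were also higher in endothelial cells of KO. *Ager* was at 17.2 and 35.3 CPM, *Rtkn2* at 2.18 and 4.14 CPM and *Akap5* at 5.54 and 12.6 CPM. The AT1 check list was at 1404 and 1386 CPM. Most of that sum in FF was *Clic5* at 777 CPM and *Hopx* at 479 CPM. *Spock2*, *Igfbp2* and *Pdpn* of the list were at 5.21, 1.91 and 6.07 CPM there, so the sum hardly reflects them. The part of AT1 RNA in the *Scnn1b* and *Scnn1g* values was not tested. Endothelial classes were gated by short lists, that of aerocytes asking for 2 UMIs, and 5 per 10000, of *Ednrb*, *Apln*, *Fibin* and *Tbx2*. Cells that met only the aerocyte and general capillary lists together, or no list, were in none of these classes. Aerocyte, general capillary, arterial, venous and lymphatic cells numbered 1276, 3033, 464, 2013 and 116 of 7253 in FF. In KO they numbered 1628, 2183, 141, 1169 and 144 of 6471, so the part in no class was larger there. No check list was made for the classes. Aerocytes, the large capillary cells that lie against AT1 cells for gas exchange, held more *Slc12a2* UMIs than any other such class in both libraries. There *Slc12a2* was at 73.8 CPM (68.1–79.8, 624 UMIs in 1276 cells) in FF and 227 CPM (217–238, 1945 UMIs in 1628 cells) in KO, 3.08-fold higher (log2 ratio 1.62, 1.49 to 1.76). Although aerocytes of KO were shallower, at a median of 3829 UMIs against 6537, 42.9% of them had a *Slc12a2* UMI against 27.9% in FF. At matched depth the shares were 16.0% (14.2–17.99) and 5.72% (4.50–7.15). Cells with at least 3 UMIs made up 14.4% of aerocytes in KO (234 cells) and 4.78% in FF (61 cells), and the highest cell had 32 and 16 UMIs.

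**Figure D4:**
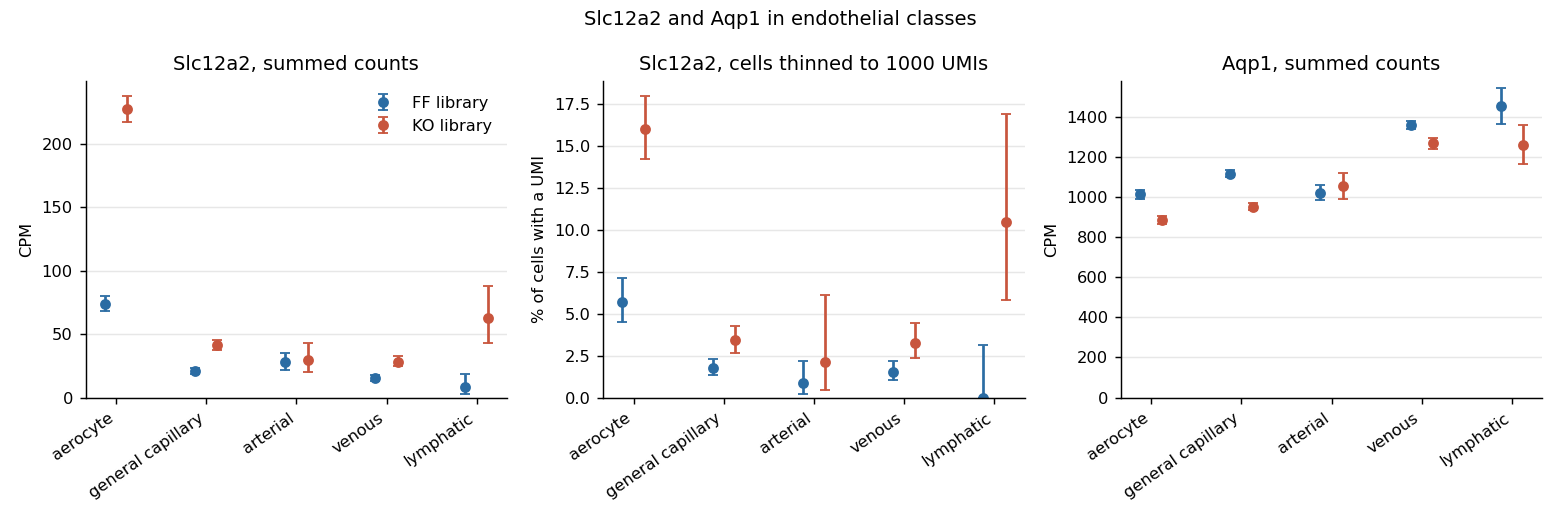
Endothelial classes by library, showing *Slc12a2* in CPM, the percentage of cells with a *Slc12a2* UMI after thinning to 1000 UMIs, and *Aqp1* in CPM, with exact 95% intervals. *Slc12a2* was highest in aerocytes of KO (227 CPM, 16.0% of cells), and *Aqp1* lay between 885 and 1451 CPM over the classes.

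The gap varied between endothelial classes. In general capillary cells, the progenitor-like cells of the capillary bed, *Slc12a2* was at 20.6 and 41.3 CPM (log2 ratio 1.01, 0.79 to 1.22), and in venous cells at 15.5 and 28.4 CPM (0.87, 0.57 to 1.17). Arterial cells were at 27.9 and 29.7 CPM (0.09, −0.59 to 0.73). Lymphatic cells were at 8.44 CPM (6 UMIs) and 62.7 CPM (33 UMIs), and after thinning 0 of 116 cells in FF had a UMI, which allows up to 2.59% by 3 counts and 3.13% by the exact interval, against 10.4% (5.83–16.9) in KO. The interval of the aerocyte ratio lay above those of the general capillary, venous and arterial classes. The lymphatic log2 ratio was higher still, at 2.89 (1.62 to 4.44) from 6 and 33 UMIs, and its wide interval overlapped that of aerocytes. Of the members tested, 1 of 4 was past 2-fold in aerocytes (8.45% of all genes), 1 of 5 in general capillary cells (8.43%), 0 of 3 in arterial cells (6.15%), 1 of 5 in venous cells (7.07%, *Scnn1b*) and 1 of 2 in lymphatic cells (8.88%). Fibroblasts were at 27.7 and 36.1 CPM (log2 ratio 0.38, 0.06 to 0.70), with a UMI in 3.30% and 3.56% of cells at matched depth. Mural cells went the other way, at 77.8 and 47.2 CPM (−0.72, −1.32 to −0.16). Ordered by the ratio of KO over FF, *Slc12a2* was number 546 of the 12246 genes tested in aerocytes and number 797 of 15373 in endothelial cells, and among genes with at least 1000 UMIs, whose ratios vary less by counting, number 11 of 3201 and number 39 of 7882. Markers of other cells moved with the libraries as well, since the neutrophil list was at 6.26 CPM in aerocytes of FF and 533 CPM in those of KO. At the ratio seen in neutrophils this list would carry 0.143% of the aerocyte *Slc12a2* UMIs of KO. At the ratio seen in AT2 cells the surfactant list would carry 2.23% of the aerocyte *Slc12a2* UMIs in FF and 0.308% in KO. These shares take carried RNA to have the profile of 1 class, and its part in the gap was not tested. Batch and genotype cannot be told apart with 1 library each. Among the listed transport genes in aerocytes *Car4*, which hydrates carbon dioxide at the capillary wall, was the highest at 3979 and 2761 CPM, and 4 of 39 tested were at least 2-fold higher in KO and none lower, among them *Fxyd5* at 37.7 and 131 CPM.

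*Aqp1*, the water channel of lung capillaries, was the most abundant of the 8 genes in endothelial cells. It was at 1155 CPM (1145–1166) in FF and 999.8 CPM (989–1011) in KO, a log2 ratio of −0.21 (−0.23 to −0.19), and at matched depth 64.9% and 58.0% of cells had a UMI. The level varied little between endothelial classes. In FF it ran from 1012 CPM in aerocytes through 1021 in arterial, 1114 in general capillary and 1358 in venous cells to 1451 in lymphatic cells, and in KO from 885 CPM in aerocytes to 1266 in venous cells. Mesothelial cells, the lining of the lung surface, were higher, at 3093 CPM in FF (7 cells) and 2713 CPM in KO (12 cells). Fibroblasts were at 354 and 349 CPM, and this came from a minority of cells. In FF 110 fibroblasts (11.5%) with at least 5 UMIs held 88.8% of the *Aqp1* UMIs, and in KO 39 (4.89%) held 68.6%. Median depths of fibroblasts were 7684 UMIs in FF and 1725 in KO, so these shares are not a comparison at matched depth.

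**Figure D5:**
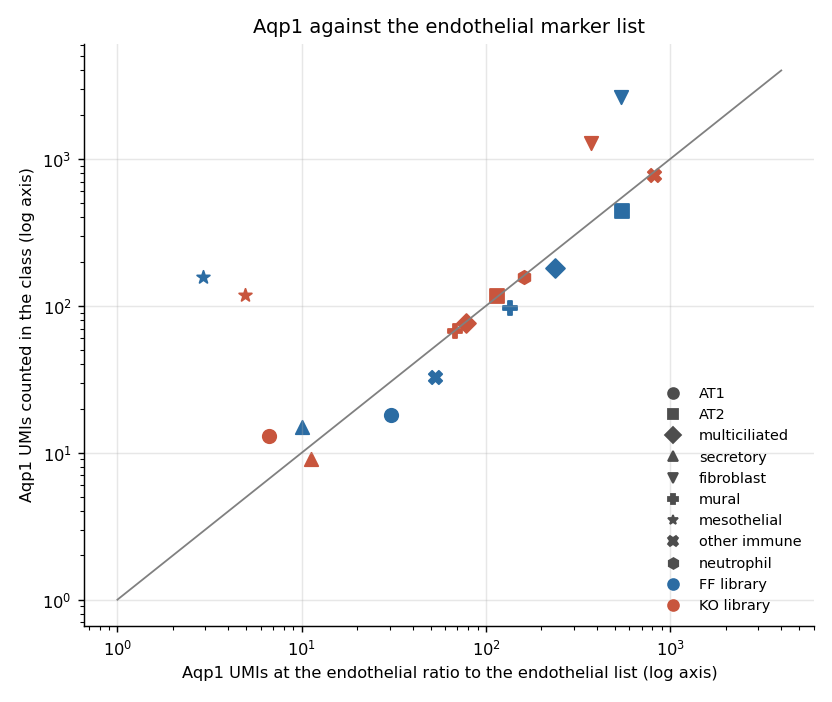
*Aqp1* UMIs counted in each non-endothelial class and library (vertical axis) against the UMIs that its endothelial marker UMIs would carry at the ratio seen in endothelial cells (horizontal axis), both logarithmic, with the line of equality. Most classes lay near the line, and fibroblasts and mesothelial cells lay above it.

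Epithelial cells also had *Aqp1* UMIs, and here the endothelial check list was counted beside them. Endothelial cells had 9.43 *Aqp1* UMIs per 100 UMIs of that list in FF and 10.0 in KO. At that ratio the list UMIs in AT2 cells would carry 549 *Aqp1* UMIs in FF and 115 in KO, where 442 and 116 were counted. For multiciliated cells 238 and 77.9 would be carried and 182 and 76 were counted, and for neutrophils of KO the values were 162 and 157. AT1 cells had 18 *Aqp1* UMIs in FF and 13 in KO, where 30.5 and 6.62 would be carried. Fibroblasts (2653 and 1293 counted, 539 and 370 carried) and mesothelial cells (158 and 118 counted, 2.92 and 4.92 carried) were above the ratio in both libraries. *Aqp1* was at 50.5 and 81.9 CPM in AT2 cells (log2 ratio 0.70) and at 55.3 and 88.9 CPM in multiciliated cells (0.68), while the endothelial check list was at 665 and 812 CPM and at 768 and 908 CPM. Per 100 list UMIs AT2 cells had 7.59 *Aqp1* UMIs in FF and 10.1 in KO. The direction was not stable, since in cells with at least 3000 UMIs the log2 ratio was −0.48 in AT2 and −0.08 in multiciliated cells. In FF 21 AT2 cells with at least 5 *Aqp1* UMIs held 49.1% of the *Aqp1* UMIs of the class. The endothelial check list was at 3103 CPM in those cells and 520.0 CPM in the rest. In KO 1 AT2 cell had at least 5, with the list at 2462 CPM in it and 770 CPM in the rest. The part of carried RNA in these ratios was not tested.

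*Scnn1a* also appeared outside the epithelium. Neutrophils of KO, 401 cells, had it at 119 CPM (105–134, 257 UMIs), close to the AT2 level, with a UMI in 33.9% of cells and in 10.2% (7.38–13.7) at matched depth. The same cells held 1 *Scnn1b* UMI and 0 *Scnn1g* UMIs, the latter allowing up to 1.39 CPM, and the epithelial marker *Epcam* was at 8.79 CPM. FF had 3 neutrophils with 1 *Scnn1a* UMI, so the libraries could not be compared there. Immune cells with UMIs of *Treml4*, *Adgre4* or *Cd300e*, a class set after the data were seen, had *Scnn1a* at 53.5 CPM in FF (4 UMIs, 10 cells) and 51.3 CPM in KO (96 UMIs, 160 cells). The other immune cells were at 3.85 and 4.30 CPM, so the signal was not shared by all immune cells. At the neutrophil ratio the neutrophil list would carry 18.8 of the 187 *Scnn1a* UMIs of endothelial cells in KO. *Tnfrsf1a*, which lies 4418 bases from *Scnn1a* on the same strand, had the same order among immune cells of KO, at 330 CPM in neutrophils, 203 CPM in the *Treml4* class and 75.9 CPM in the others. It was also at 222 and 216 CPM in endothelial cells, where *Scnn1a* was at 3.89 and 5.69 CPM. *Tnfrsf1a* starts past the end of *Scnn1a*, and *Ltbr* lies on its other side, 6773 bases away on the opposite strand. In KO *Ltbr* was at 55.025 CPM in neutrophils, 57.7 CPM in the *Treml4* class and 32.2 CPM in the others. Neutrophils were thus not the highest for *Ltbr*. Whether reads of either neighbour contribute to *Scnn1a* was not tested.

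The genes most like the members over the 32 profiles of 16 classes and both libraries were taken from 13904 genes, by Pearson correlation of log2(CPM + 10). The profiles share libraries, and the values describe likeness of levels alone. *Scnn1b* and *Scnn1g* were among the nearest of each other at r = 0.95. *Itgb6*, an integrin subunit gene, was nearest to *Scnn1g* (r = 0.967). For *Cftr* the nearest was *Krt23* (r = 0.971), with the potassium channel gene *Kcnj15* (0.964) and the anion transporter gene *Slc26a9* (0.961) next. *Lypd2* (r = 0.969) led for *Aqp4*, *Baiap2l1* (0.898) for *Atp1b1* and *Unc45b* (0.897) for *Aqp1*. *Slc12a2*, spread over epithelial, capillary and mural cells, had the lowest leading value, with *Pon3* at r = 0.785.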

How the data were processed

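Lung cells of *Cebpa* fl/fl (FF) and *Cebpa* ΔSftpc (KO) mice were compared, with 1 library per genotype. The deposited values are raw UMI counts per gene and cell, made by the authors on mm10 with Cell Ranger, version 6.1.1 per the submitters' notes and 5.0.0 per the file headers. No column was left unused. The libraries held 69200420 and 64697396 UMIs in 11721 and 13373 barcodes, 45 of which occur in both. Cells were kept if they had 200 or more genes and no more than 20% mitochondrial UMIs. Each gate asked for a minimum of summed marker UMIs and of their share per 10000 UMIs (AT1 5 and 20, with an *Rtkn2* UMI; AT2 and secretory 10 and 300; multiciliated and endothelial 5 and 20), set after the counts were seen. No gate was met by 12.6% and 14.2% of cells, and cells that met more than 1 gate (1.75% and 8.68%) were left out, with no other treatment of doublets. CPM are summed counts per 1000000 UMIs with exact Poisson intervals, shares have exact binomial (Clopper-Pearson) intervals, and log2 ratios have exact conditional intervals, with 3 counts in place of fewer in a library. For a count of 0 the limit is 3 counts. Matched depth means cells with at least 1000 UMIs thinned to 1000 UMIs, which left out 9 and 1 AT1, 11 and 41 AT2, 17 and 119 aerocyte and 100 and 414 endothelial cells. A ratio was taken for genes with at least 20 UMIs over both libraries. Named were the 8 members, the 3 genes most like each, and from a list of 64 other transport genes those with the 5 highest CPM and those past 2-fold with an interval that leaves out 0, of which the text gives a part. Members and lists were chosen with earlier results of these data known. Gene positions are of GENCODE vM21. Python 3.11.15, numpy 2.4.6, pandas 2.3.3, scipy 1.17.1 and matplotlib 3.10.9 were used, and the ratio and its interval were tested on simulated data. The alternatives tried were other gates, depths, filters, weights of cells, denominators and a subtraction of each library's mean profile.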

Additional observations from a re-analysis of the deposited data

How the results depend on the processing

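No paired analysis was possible because each genotype had 1 library. Over 41 ratios of members and classes, 325 of 373 values under other settings lay within the interval of the main value. The sign changed in 40, and in 20 of these, from 12 ratios, the value also lay outside the interval. Of ratios past 2-fold with an interval that left out 0, the sign changed for *Atp1b1* with 2-gate cells kept (−0.13) and *Slc12a2* gated after thinning (−1.21), both in secretory cells. *Atp1b1* in endothelial cells and aerocytes, *Aqp4* in airway cells and *Aqp1* in AT2 and multiciliated cells were among the others. The log2 ratio of *Slc12a2* ran from 1.46 to 1.69 in aerocytes and from 1.42 to 1.68 in endothelial cells. With cells weighted equally the log2 ratios were −0.53 for *Scnn1a* in multiciliated cells, −0.25 for *Atp1b1* and −0.49 for *Slc12a2* in AT2 cells, and 1.46 and 1.68 for *Slc12a2* in aerocytes and endothelial cells. In that setting levels were 741 CPM for *Scnn1a* in AT1 cells of FF, 844 and 707 CPM for *Atp1b1* in AT2 cells of FF and KO, and 195 CPM for *Slc12a2* in aerocytes of KO. *Atp1b1* in AT2 cells was at −0.048 with 2-gate cells kept, 0.19 with the library profile subtracted and −0.0030 without the gate genes in the total. The profile subtraction gave 1.62 for *Slc12a2* in endothelial cells. Thinned to 2000 UMIs, 11.6% and 29.4% of aerocytes had a *Slc12a2* UMI. In AT1 cells the ratios ran from −0.76 to −0.11 for *Scnn1a*, −1.61 to −0.72 for *Scnn1b* and −2.47 to −0.84 for *Scnn1g*, the last without the *Rtkn2* requirement and with profile subtraction at its ends. With a minimum of 50 UMIs fewer genes were tested, and the genes at least 2-fold higher were 110 in AT1 (main 426), 345 in AT2 (700), 148 in multiciliated (437), 164 in secretory (605), 482 in aerocytes (876) and 527 in general capillary cells (926). Those at least 2-fold lower were 95 in multiciliated (238), 40 in secretory (162), 131 in endothelial (242), 57 in aerocytes (159) and 92 in general capillary cells (202). Centred on the median of all genes, 197 were higher and 373 lower in AT1 (426 and 150 before) and 559 higher and 211 lower in AT2 (700 and 137). The cause of these shifts was not tested. Depth limits the KO values most in AT1 cells, where 3 UMIs already amount to 82.2 CPM.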
